A study of Danio rerio with 9 samples.

Results

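The cryptochromes examined here are the zebrafish genes cry1a, cry1b, cry2, cry3a, cry3b and cry4, without the related photolyases. The array probes used were all those, control spots excepted, whose transcript accession belongs to 1 of these 6 genes. This gave 10 of the 43603 probes, with 2 probes for cry1a, 3 for cry1b, 2 for cry3b and 1 each for cry2, cry3a and cry4. The study writes cry3a as zCry2a, cry3b as zCry2b and cry2 as zCry3, and the names of the current gene table are used below. Within this family cry1a, cry3a and cry3b are described as light-driven (5 probes) and cry1b as clock-driven (3 probes), while cry2 and cry4 were put in neither class (2 probes). The classes do not exclude each other, since the study describes cry3a and cry3b as driven by the clock's activators as well as by light.

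Cryptochromes descend from light-dependent DNA repair enzymes, the photolyases, and have lost the repair activity. In the vertebrate clock, CRY and PER proteins enter the nucleus and repress the CLOCK(NPAS2):BMAL complex, which drives the transcription of Cry and Per genes through E-box elements, so that the loop runs with a period of about a day. Zebrafish carry more cryptochromes than mammals do, and their peripheral tissues sense light directly, so that some Per and Cry genes are switched on by light itself and others are carried by the clock. Of the zebrafish proteins, those of cry1a, cry1b, cry3a and cry3b repress CLOCK:BMAL in reporter assays, whereas those of cry2 and cry4 do not. In birds, Cry4 is studied as a candidate magnetic sensor.

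Whole bodies of 6 dpf larvae gave the RNA, which was measured on 9 Agilent arrays with 1 dye, 1 array for each combination of 3 genotypes and 3 lightings. The genotypes were wild type (WT), a zPer2/zCry1a double knockout (DKO) made with TALENs, and a zPer2/zCry1a/zCry2a triple knockout (TKO) in which zCry2a was disrupted with CRISPR-Cas9, so that both knockouts lack zPer2 and zCry1a. All larvae, controls included, were raised in constant darkness from fertilization, and were then left in darkness or given 3-h light or 12-h light. For DKO larvae the study states that sampling took place 12 h after light onset, so the 3-h light larvae had then been back in darkness. That time is not given for the arrays of the other genotypes. The labels do not say how many larvae were pooled, and with 1 array per condition no condition has a replicate.

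Levels are given as the log2 signal of a probe minus the 75th percentile of its array, so that 0 is the 75th percentile. Different probes bind with different strength, so a level is compared only with the same probe on other arrays. Probes spotted more than once differed between spots by an SD that gives 0.189 for a log2 ratio of 2 arrays, which covers the spots of an array and not the variation between larvae. Between 85.9% and 89.8% of spots were well above background, and the 75th percentile signal lay between 547 and 636. The TKO dark array stood apart. It carried the largest loading (0.813) on the first component of all arrays, on which the other 8 lay between -0.365 and 0.172, so values are also given without it. Each slide held 1 genotype, where the dark array had position 1, the 3-h light array position 2 and the 12-h light array position 3 or 4. Genotype and slide, and lighting and position, therefore cannot be told apart. All 18 listed marker genes of retina, pineal, lens, muscle, liver, pancreas, blood, brain and skin were well above background on all 9 arrays. In whole-body RNA, fewer cells of a type and less RNA per cell cannot be told apart.

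The disrupted genes were read first. None of the 3 lost its transcript signal, and where the probes lie relative to the mutations was not tested, so their levels check no label. On WT, DKO and TKO arrays per2 probe A_15_P102459, for the partner repressor PER2, had levels of -4.65, -4.37 and -5.17 in darkness, -4.38, -4.09 and -4.12 at 3-h light, and -1.01, -0.55 and -0.60 at 12-h light. The 12-h light arrays were the highest in every genotype, including those that lack functional zPer2. For cry1a and cry3a the levels in knockout larvae were partly lower than in WT larvae, as given below.

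At 12-h light, 6 of the 10 cryptochrome probes were called against darkness by a limma fit with terms for genotype and lighting. Among all 39140 probes tested, 24.2% were called, 14.5% as higher and 9.67% as lower. All 5 probes of cry1a, cry3a and cry3b were higher, and 1 of the 3 cry1b probes was lower. The study had listed cry1a, cry3a and cry3b among the genes most induced by 12-h light on the DKO arrays used here. Their calls are therefore no separate evidence for the class. The 5 higher probes lay beyond the 99th percentile of all probes, a log2 change of 1.02, where the median was 0.09, while the lower cry1b probe, at -0.57, did not reach the 5th percentile of -0.66. The 2 cry3b probes ranked 5 and 14 from the top, the 2 cry1a probes 44 and 45, and the cry3a probe 61. Without the TKO dark array, 7 cryptochrome probes were called, the added probe being that of cry4. In that fit 10574 of all 39141 probes were called, against 9453 with all arrays. The log2 changes were then 1.98 and 2.02 for cry1a, 1.87 for cry3a, and 4.0 and 3.28 for cry3b.

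**Figure D1:**
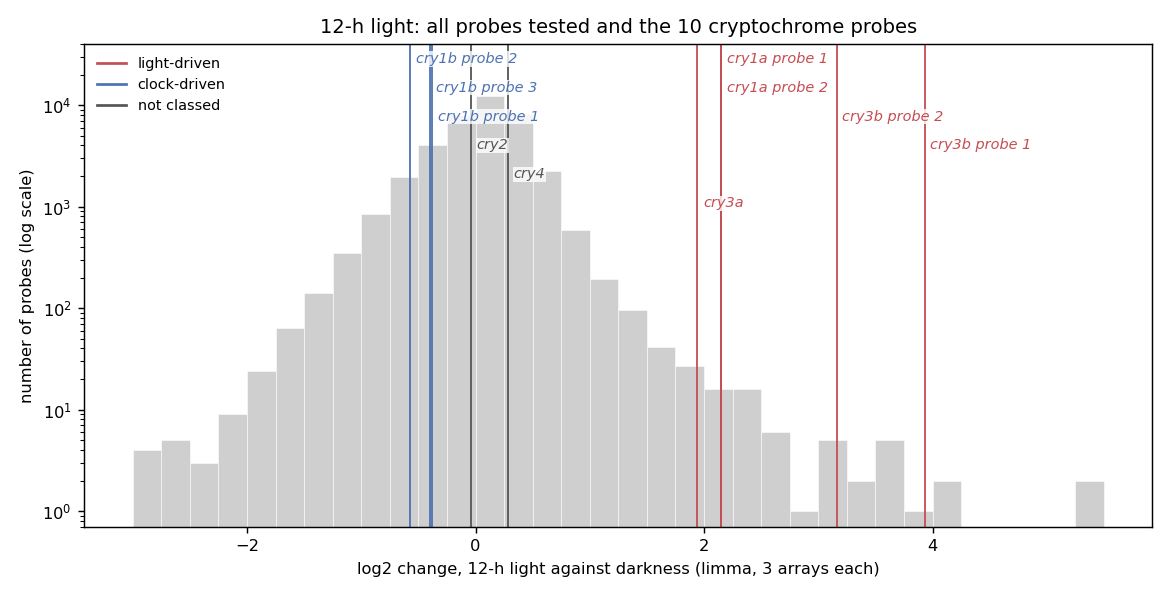
Number of probes (log scale) by log2 change at 12-h light against darkness, from the limma fit over 39140 probes, with a vertical line for each cryptochrome probe. The 5 probes of the light-driven genes lie between 1.94 and 3.93, beyond the 99th percentile of 1.02, while the cry1b, cry2 and cry4 probes lie within the bulk of the distribution.

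In the main fit the steepest response belonged to cry3b (zCry2b). Its probe 1 (A_15_P173191) had levels of -5.70, -5.71 and -5.71 on the WT, DKO and TKO dark arrays. Those levels were -4.38, -4.85 and -4.65 at 3-h light and -1.37, -1.94 and -2.01 at 12-h light. The 3 lightings did not overlap across genotypes, and the dark arrays of the 3 genotypes differed by less than the spot spread. At these dim signals the scanner software's error for such a log2 ratio was larger than that spread, at 0.336 to 0.357. At 12-h light probe 1 was 20.0-fold higher than in darkness in WT larvae, 13.7-fold in DKO larvae and 13.0-fold in TKO larvae. The limma estimate over the 3 genotypes was a log2 change of 3.93 (95% interval 3.62 to 4.25, adjusted p = 9.84e-05).

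Probe 2 of cry3b (A_15_P242926) was dim. Its levels were -7.06, -6.20 and -6.58 in darkness, -6.38, -5.95 and -6.36 at 3-h light and -3.22, -3.41 and -3.72 at 12-h light for WT, DKO and TKO larvae. It was not well above background on the WT dark, WT 3-h light and TKO dark arrays. The ratios to the dark arrays of WT and TKO larvae are therefore lower bounds, taken against the dimmest signal that passed on the array. The probe was at least 8.93-fold higher at 12-h light than in darkness in WT larvae, 6.90-fold in DKO larvae and at least 6.87-fold in TKO larvae. Its limma change was 3.16 (95% interval 2.70 to 3.63, adjusted p = 0.000696), from signals that include the 3 arrays where it was dim. Both probes of cry3b moved the same way at 12-h light, with log2 ratios, bounds included, that differed by 0.92 to 1.16 between them. With another background correction (normexp with an offset of 50, which compresses dim signals), the changes of probes 1 and 2 were 1.77 and 0.759. Both were still called. The same correction gave 1.58 and 2.05 for the cry1a probes and 1.77 for cry3a, so cry3b was then not the steepest.

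For cry1a (zCry1a), the repressor disrupted in both knockouts, both probes responded alike. Probe 2 (A_15_P628261), the brighter, had levels of 1.28, 0.43 and 0.36 on the WT, DKO and TKO arrays in darkness. At 3-h light the levels were 0.91, 0.70 and 0.90, and at 12-h light 3.12, 2.74 and 2.64. Every 12-h light array lay above the other 6 arrays, and the dark and 3-h light arrays overlapped. Probe 1 (A_15_P104739) had levels of -1.57, -2.84 and -3.0 in darkness, -1.86, -2.45 and -2.19 at 3-h light and 0.23, -0.53 and -0.65 at 12-h light, again with the 12-h light arrays on top.

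The 12-h light ratios of both cry1a probes were 3.49-fold and 3.59-fold in WT larvae, 4.94-fold and 4.98-fold in DKO larvae, and 5.07-fold and 4.85-fold in TKO larvae. The limma changes were 2.15 for each probe, with 95% intervals of 1.70 to 2.60 and 1.76 to 2.53 and adjusted p of 0.00189 and 0.00132. Within a genotype both probes differed by 0.01 to 0.06 in this log2 ratio, which is less than the spot spread. In the ordered levels of probe 1, the DKO and TKO arrays were neighbours within the spot spread in darkness and at 12-h light, and WT lay above both under every lighting.

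The gene disrupted only in TKO larvae, cry3a (zCry2a), has a single probe (A_15_P105520). Its levels were -0.29, -0.36 and -1.15 in darkness, -0.28 in DKO and -0.57 in TKO larvae against 0.15 in WT larvae at 3-h light, and 1.83, 1.36 and 0.84 at 12-h light for WT, DKO and TKO. The 12-h light arrays were the 3 highest, and within each lighting TKO was the lowest. The rise at 12-h light was 4.33-fold in WT, 3.29-fold in DKO and 3.96-fold in TKO larvae. The limma change was 1.94 (95% interval 1.67 to 2.21, adjusted p = 0.000604).

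**Figure D2:**
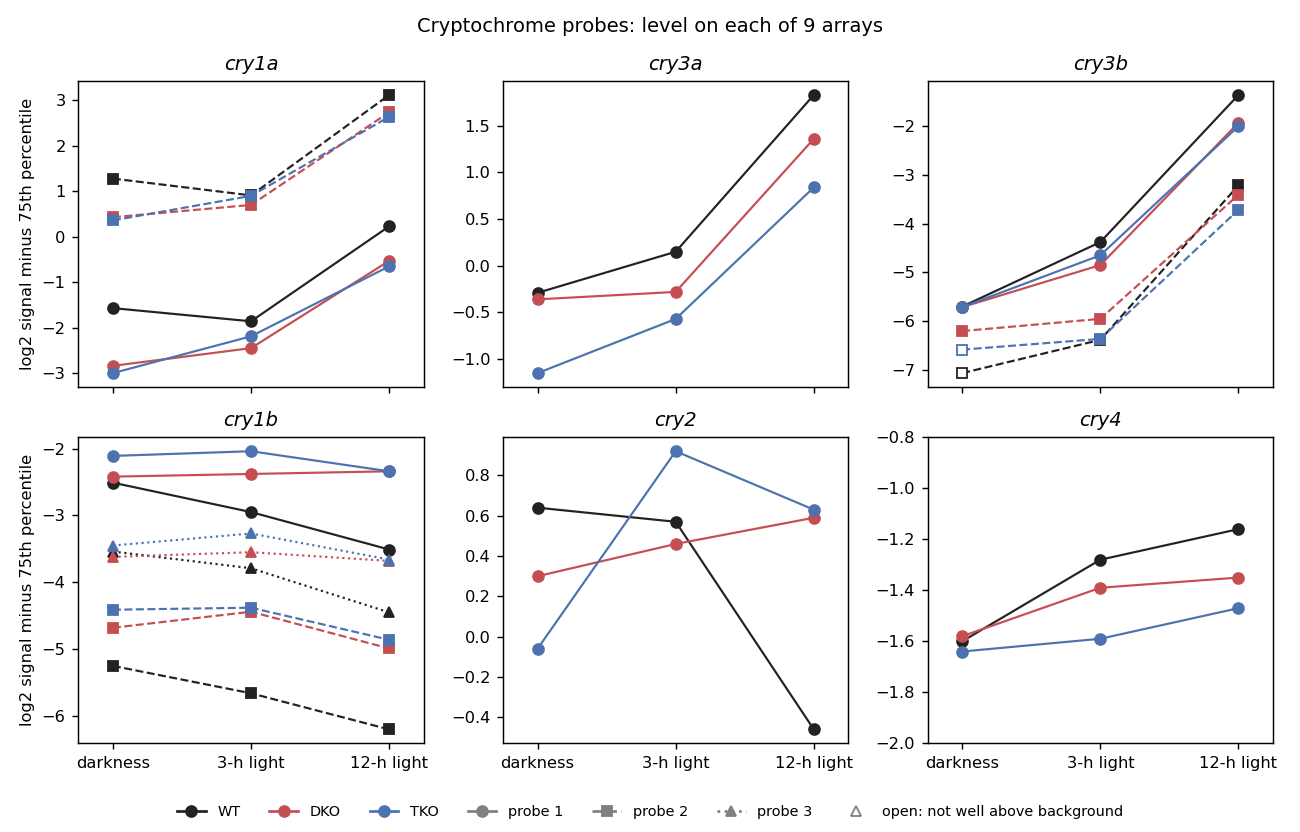
Level of each cryptochrome probe (log2 signal minus the 75th percentile of the array) under each of the 3 lightings, 1 point per array, with WT in black, DKO in red and TKO in blue. Open symbols are arrays on which the probe was not well above background, and the open WT symbol of cry3b probe 2 at 3-h light lies under the TKO symbol. In cry1a, cry3a and cry3b all 3 genotypes rise at 12-h light, while cry1b and cry2 fall there in WT larvae and lie higher in DKO and TKO larvae.

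After 3-h light, 1 of the 10 probes was called against darkness, close to the share of 8.41% among all probes. The called probe was cry3b probe 1, which was 2.49-fold higher in WT, 1.82-fold in DKO and 2.08-fold in TKO larvae. Of all probes, 0.512%, 0.455% and 1.11% were at least 2-fold higher, which the DKO ratio was not. The limma change of cry3b probe 1 was 1.08 (95% interval 0.76 to 1.40, adjusted p = 0.0129). The call was lost without the WT dark array (0.92, adjusted p = 0.0509), the WT 3-h light array (1.06, adjusted p = 0.0961) or the TKO 3-h light array (1.03, adjusted p = 0.0885). It was lost too with the normexp correction (0.20, adjusted p = 0.151), and it held without the TKO dark array (1.14, adjusted p = 0.0202). For cry3a the change was 0.37 (95% interval 0.10 to 0.64, adjusted p = 0.0839), with ratios above 1 in 3 of 3 genotypes. Its DKO ratio, 0.08 in log2, was within the spot spread, and its TKO ratio rests on the dark array that stood apart. Without that array the limma change of cry3a was 0.30 (adjusted p = 0.151). The cry1a probes differed in direction between genotypes at 3-h light. In WT larvae they were 1.22-fold and 1.29-fold lower than in darkness, in DKO larvae 1.31-fold and 1.21-fold higher, and in TKO larvae, against the dark array that stood apart, 1.75-fold and 1.45-fold higher. That difference was not tested for 3-h light alone. By the study's RT-PCR in WT larvae, 3-h light strongly induced zCry1a, with its peak 3 h after onset. The DKO arrays were sampled 12 h after onset and do not cover that time, and for WT and TKO arrays no time is stated.

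Setting 12-h light against 3-h light directly called all 5 light-driven probes and no other cryptochrome probe, where 0.445% of all probes were called, 0.353% as higher. The study had picked cry3a and cry3b by this same contrast on the DKO arrays used here. Its list of the genes most induced by 12-h light on those arrays also holds cry1a. The calls of all 5 probes are therefore no separate evidence. The log2 changes were 1.85 and 2.0 for cry1a, 1.57 for cry3a, and 2.85 and 2.78 for cry3b, each higher in 3 of 3 genotypes, with adjusted p between 0.00067 and 0.0142. These comparisons share arrays with those against darkness. In DKO larvae they set light that lasted until sampling against a 3-h pulse followed by darkness. Without the DKO 12-h light array or the TKO 12-h light array, only the 2 cry3b probes were still called. Without the WT 3-h light, WT 12-h light or DKO 3-h light array, 3 cryptochrome probes were, where 22, 31 and 31 of all probes were.

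**Figure D3:**
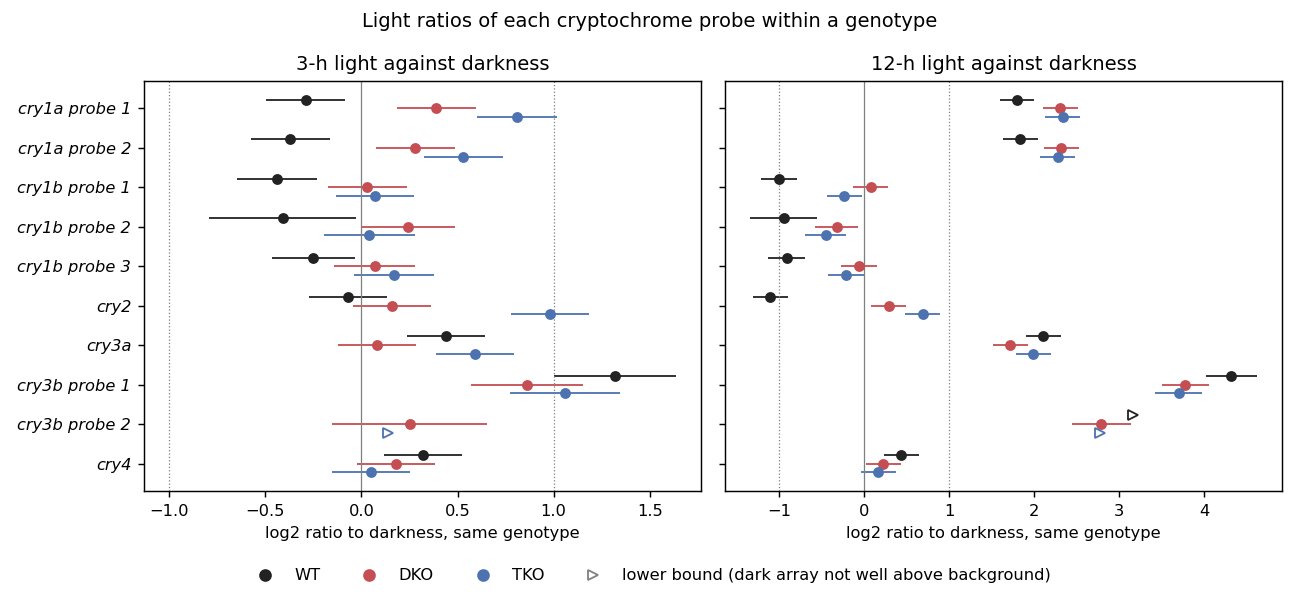
Log2 ratio to darkness of the same genotype for each cryptochrome probe at 3-h light (left) and 12-h light (right), with bars for the error the scanner software gives the 2 spots, and open triangles for lower bounds. The solid line is no change and the dotted lines mark 2-fold. At 12-h light the light-driven probes lie between 1.72 and 4.32, and WT larvae alone hold the cry1b and cry2 ratios near -1.

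The 3 probes of cry1b, a CLOCK:BMAL repressor, went the other way in WT larvae. Probe 1 (A_15_P168101) had levels of -2.51, -2.95 and -3.51 in darkness, 3-h light and 12-h light in WT larvae. In DKO larvae they were -2.42, -2.38 and -2.34, and in TKO larvae -2.11, -2.04 and -2.34. The WT 12-h light array was the lowest of the 9, and the 3 DKO arrays lay within 0.08 of each other.

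Probes 2 and 3 of cry1b gave the same order in WT larvae. Probe 2 (A_15_P321356) had levels of -5.25, -5.66 and -6.20 in WT, -4.68, -4.44 and -4.99 in DKO and -4.41, -4.38 and -4.86 in TKO larvae, in darkness, 3-h light and 12-h light. Probe 3 (A_15_P634101) had levels of -3.54, -3.79 and -4.45 in WT, -3.62, -3.55 and -3.68 in DKO and -3.45, -3.27 and -3.66 in TKO larvae. On every probe the WT 12-h light array was the lowest. In WT larvae the log2 ratios of the 3 probes to darkness at 12-h light were -1.0, -0.94 and -0.91, all within 0.09 of each other and just under the 2-fold threshold. In DKO larvae those ratios were 0.08, -0.32 and -0.06, and in TKO larvae -0.23, -0.45 and -0.21.

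Over the 3 genotypes only probe 2 of cry1b was called at 12-h light, with a log2 change of -0.57 (95% interval -0.90 to -0.24, adjusted p = 0.0287). The call was lost without the WT dark (-0.39, adjusted p = 0.0559), WT 12-h light (-0.47, adjusted p = 0.0934), DKO 12-h light (-0.63, adjusted p = 0.0878) or TKO 12-h light array (-0.61, adjusted p = 0.0836), and with the normexp correction (-0.15, adjusted p = 0.112). Without the TKO dark array it was -0.62 (adjusted p = 0.0394). Probes 1 and 3 had changes of -0.38 (95% interval -0.83 to 0.07, adjusted p = 0.167) and -0.40 (95% interval -0.78 to -0.01, adjusted p = 0.109). Both were called when arrays were weighted by their quality, at -0.60 (adjusted p = 0.0344) and -0.58 (adjusted p = 0.0199).

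The single probe of cry2 (A_15_P161566), the gene the study calls zCry3, had a WT pattern like that of cry1b at 12-h light only. Its levels in darkness, 3-h light and 12-h light were 0.64, 0.57 and -0.46 in WT larvae. In DKO larvae they were 0.30, 0.46 and 0.59, and in TKO larvae -0.06, 0.92 and 0.63. The WT 12-h light array was the lowest of the 9 and the TKO dark array the next lowest. In WT larvae cry2 was 2.15-fold lower at 12-h light than in darkness, place 328 from the bottom among 38812 probes, of which 1.2% were at least 2-fold lower. In DKO and TKO larvae it was 1.22-fold and 1.62-fold higher, and the TKO ratio rests on the dark array that stood apart. The study had listed cry2, and a gene named cry1ab, in a cluster drawn from these arrays. The WT pattern of cry2 is therefore no separate evidence, nor is that of cry1b if cry1ab is the same gene. The study describes the cluster as inhibited in animals that establish rhythms. It counts DKO larvae at 12-h light among them, where cry2 was not lower here. The limma change over genotypes was -0.04 (95% interval -0.80 to 0.72, adjusted p = 0.933), and its sign depended on the arrays: it was 0.33 without the WT dark array, 0.38 without the WT 12-h light array and -0.38 without the TKO dark array.

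The flattest member was cry4 (A_15_P137886). Its levels in darkness, 3-h light and 12-h light were -1.60, -1.28 and -1.16 in WT, -1.58, -1.39 and -1.35 in DKO and -1.64, -1.59 and -1.47 in TKO larvae. The whole range over 9 arrays was 0.48, and no neighbours in the order of its levels differed by more than the spot spread. The 12-h light array was the highest of its genotype in 3 of 3 genotypes, by 1.36-fold, 1.17-fold and 1.12-fold over darkness. The limma change was 0.28 (95% interval 0.08 to 0.49, adjusted p = 0.0548). It passed the threshold without the TKO dark array (0.34, adjusted p = 0.0233), in the deposited table (0.31, adjusted p = 0.0484), with limma's trend and robust options (adjusted p = 0.0402), with array weights (0.38, adjusted p = 0.00587) and among probes well above background on all arrays (adjusted p = 0.0468). With the normexp correction it was 0.14 (adjusted p = 0.231), and the TKO ratio turned to -0.03. In the zebrafish assembly GRCz12tu, cry4 and cry3b lie near each other with 2 protein-coding genes between them. The flattest and the steepest response of the main fit thus belong to near neighbours.

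Set side by side at 12-h light, the light-driven and clock-driven classes were furthest apart in WT larvae. At 12-h light the log2 ratios of the 5 light-driven probes to darkness ran from 1.80 to 4.32 in WT, from 1.72 to 3.78 in DKO and from 1.99 to 3.70 in TKO larvae. Those of the 3 clock-driven probes ran from -1.0 to -0.91, from -0.32 to 0.08 and from -0.45 to -0.21. The medians in WT, DKO and TKO larvae were 2.11, 2.32 and 2.34 for light-driven probes. For clock-driven probes, all of cry1b, they were -0.94, -0.06 and -0.23, so the wider WT gap lies with that gene. Over all probes compared, the medians were 0.06, 0.04 and 0.14. The difference between the class medians, on the measured signals, was 3.06 in WT, 2.38 in DKO and 2.57 in TKO larvae, and at 3-h light it was 0.85, 0.21 and 0.52. The value of 0.85 counts cry3b probe 2, which was not well above background on the WT dark and WT 3-h light arrays. Without that probe the WT medians at 3-h light were 0.075 for light-driven and -0.41 for clock-driven probes. In TKO larvae they were 0.59 and 0.07 with the dim probe still counted, as a lower bound of 0.14. The remaining light-driven probes of TKO larvae had log2 ratios of 0.81 and 0.53 (cry1a), 0.59 (cry3a) and 1.06 (cry3b probe 1). At 3-h light the order of WT and TKO larvae thus rests on the dim probe. All 5 light-driven probes rose at least 2-fold at 12-h light in each genotype, where 1.09% of probes were in WT, 1.24% in DKO and 2.07% in TKO larvae. The classes were drawn with results of these arrays known, so these values describe them and no test was made.

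Between genotypes, 2 of the 10 probes were called for DKO against WT over the 3 lightings, where 12.9% of all probes were, 8.37% as higher and 4.57% as lower. With only 10 probes, a count of 2 is near that share. Probe 1 of cry1a was lower in DKO larvae, by 2.41-fold in darkness, 1.51-fold at 3-h light and 1.70-fold at 12-h light, with a limma change of -0.87 (95% interval -1.32 to -0.43, adjusted p = 0.0267). That call was lost without the WT dark (-0.64, adjusted p = 0.0616), WT 12-h light (-0.90, adjusted p = 0.0933), DKO dark (-0.81, adjusted p = 0.0996), DKO 3-h light (-0.88, adjusted p = 0.0971) or DKO 12-h light array (-0.93, adjusted p = 0.0962). Probe 2 of cry1a was lower by 1.81-fold, 1.16-fold and 1.30-fold, with a change of -0.48 (95% interval -0.87 to -0.09, adjusted p = 0.109).

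For cry1b, probe 2 was higher in DKO than in WT larvae under every lighting, by 1.49-fold, 2.34-fold and 2.31-fold, with a change of 2.01-fold or 1.0 on the log2 scale (95% interval 0.68 to 1.33, adjusted p = 0.00445), a call that no left-out array ended. With the normexp correction, which compresses this dim probe, the change was 0.22 (adjusted p = 0.0409). Without the TKO dark array the called changes of cry1a probe 1 and cry1b probe 2 had adjusted p of 0.0148 and 0.00567. Probes 1 and 3 had changes of 0.61 (adjusted p = 0.0824) and 0.31 (adjusted p = 0.261). Without the WT dark array probe 1 passed, at 0.85 (adjusted p = 0.025). In darkness the DKO to WT ratios of probes 1 and 3 were within the spot spread (0.10 and -0.08), and at 12-h light they were 1.17 and 0.77. The same 12-h light ratio was 1.05 for cry2, against -0.34 in darkness, and TKO larvae gave 1.09 at 12-h light and -0.70 in darkness.

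**Figure D4:**
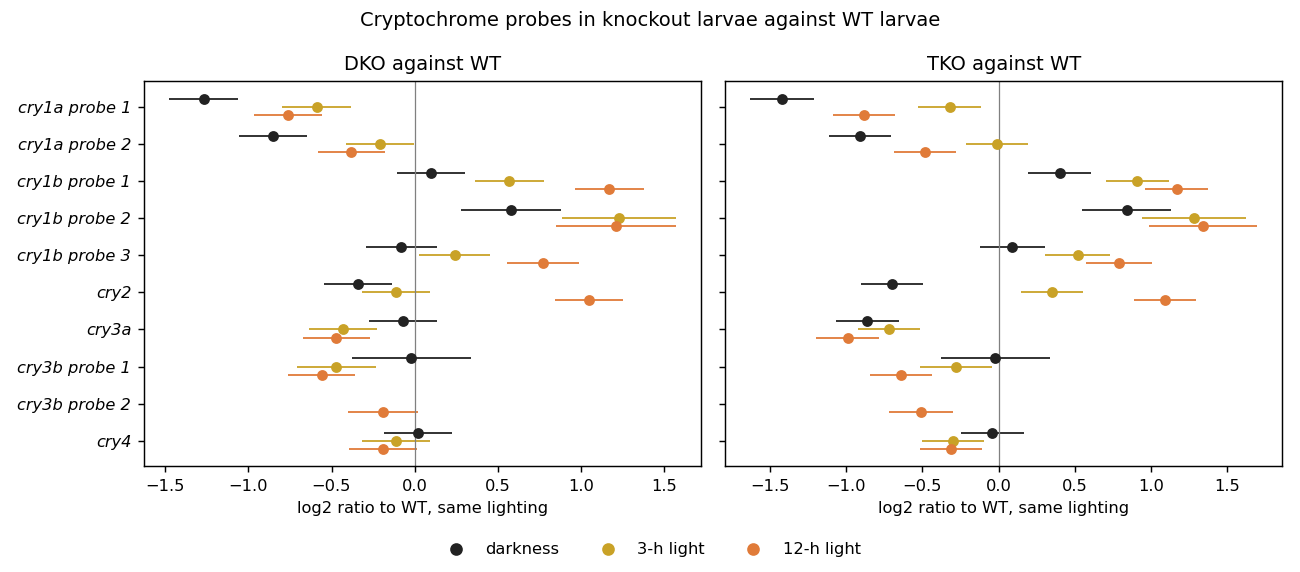
Log2 ratio of DKO to WT larvae (left) and of TKO to WT larvae (right) at the same lighting for each cryptochrome probe, with bars for the scanner software's error, and with ratios that are lower bounds left out. For cry2 and for all 3 probes of cry1b the ratios at 12-h light (orange) are 0.77 or more in both knockouts and lie above those in darkness (black), while for cry1a, cry3a and cry3b they lie below 0.

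The probes of cry3a, cry3b and cry4 did not pass the test for DKO against WT. The changes were -0.32 for cry3a (adjusted p = 0.121), -0.35 and 0.36, of opposite sign, for cry3b probes 1 and 2 (adjusted p = 0.142 and 0.28) and -0.09 for cry4 (95% interval -0.30 to 0.11, adjusted p = 0.542). For TKO against DKO, none of the 10 probes was called, and neither was any under the alternatives or with any array left out, where 1.34% of all probes were called and 8151 had an unadjusted p under 0.05. The member furthest from 0 was cry3a, the gene disrupted only in TKO larvae. It was 1.73-fold lower in TKO than in DKO larvae in darkness, 1.22-fold at 3-h light and 1.44-fold at 12-h light, with a change of -0.53 (95% interval -0.81 to -0.26, adjusted p = 0.0934) and of -0.47 (adjusted p = 0.16) without the TKO dark array.

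Whether the 12-h light response differed between genotypes was asked with a fit in which DKO and TKO share a light response, chosen after the values had been seen. It left 2 residual degrees of freedom and fitted each WT array exactly. Its spread therefore came only from how far DKO and TKO arrays differed, and no variation of WT arrays enters its intervals. The log2 response of the knockouts minus that of WT was 1.59 for cry2 (95% interval 0.68 to 2.51), and for cry1b it was 0.92 (0.27 to 1.57), 0.56 (-0.03 to 1.15) and 0.78 (0.17 to 1.38) on probes 1, 2 and 3. For cry3b it was -0.58 (-1.19 to 0.03) on probe 1 and -1.02 (-1.58 to -0.45) on probe 2, the dim probe, and for cry1a it was 0.52 and 0.45. All of these had an adjusted p of 0.979, and limma called 0 of 39140 probes, with 1072 at an unadjusted p under 0.05. Without the DKO 3-h light array or the TKO 3-h light array, 147 probes were called, cry2 among them (adjusted p = 0.0498). Those 2 leave-outs are the same result, since the knockout array that remains at 3-h light is then fitted exactly. A fit that took 3-h and 12-h light together as lit called 0 probes for DKO and 0 for TKO against WT. In it 1281 and 9268 probes had an unadjusted p under 0.05. There the change between 3-h and 12-h light counts as spread. On the light-driven probes its standard errors were 1.4 to 2.54, so it could not decide for them. A difference in light response between genotypes was thus not shown for any cryptochrome, and the intervals do not show that the responses are alike.

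Other genes of the clock were read from a list of PER genes, activators, photolyase relatives, CRY turnover factors, E-box and ROR-element factors and D-box factors. Of 45 listed genes 38 were tested, with 70 probes. Of these probes, 27 (19 genes) rose and 3 (2 genes) fell at 12-h light, with a median log2 change of 0.346 against 0.0903 over all probes, of which 14.5% rose and 9.67% fell. At 3-h light 8 of the 70 rose and 0 fell in limma, where 8.41% of all probes were called in either direction and 13398 had an unadjusted p under 0.05. The largest rise was that of per2, at 4.15 on probe A_15_P456650 (adjusted p = 0.00199). That probe was not well above background on 5 of the 6 arrays in darkness or at 3-h light, and on probe A_15_P102459 the rise was 4.01 (adjusted p = 0.000289). The largest fall was that of per1b, another PER repressor, at -1.67 (adjusted p = 0.0315), with log2 ratios of -3.17 in WT, -0.98 in DKO and -0.86 in TKO larvae.

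Among the list's groups, read against the same 14.5% of all probes that rose, all 6 probes of the photolyase relatives cry5, cry-dash and cpdp, which repair ultraviolet damage in DNA or derive from enzymes that do, rose at 12-h light, with a median of 1.2. The highest were the 2 probes of cry5, the (6-4) photolyase, at 3.20 and 3.71. Of the CLOCK, NPAS2 and BMAL activators 5 of 7 probes rose and 0 fell (median 0.431). Of the CRY turnover factors and kinases 2 of 9 rose, not far from the share over all probes. Of these, 1 was fbxl3a, of the F-box family that marks CRY for degradation (0.539, adjusted p = 0.0102). Both probes of its relative fbxl3b were not called (0.107 and -0.0253, adjusted p = 0.376 and 0.808). In the E-box and ROR-element loop 4 of 23 rose, close to the share over all probes, and 1 fell (median 0.0803), and among D-box factors 8 of 17 rose and 0 fell (median 0.526). For DKO against WT 1 of the 70 listed probes was higher and 3 were lower, where 8.37% and 4.57% of all probes were, and for TKO against DKO 1 was higher and 0 were lower, where 1.34% were called in either direction.

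By likeness of profile over the 9 arrays, each member was matched at its brightest probe with the genes that differed least from it after centring, among 12505 named genes. The likeness is a root-mean-square log2 difference, where a lower value is more alike. For cry1a the closest were arr3b (0.226) and arr3a (0.242), which encode cone arrestins, and ddb2 (0.361), a sensor of ultraviolet DNA damage, against a median of 1.03 over all probes. For cry3a they were fech (0.368), the last enzyme of heme synthesis, arr3b (0.372) and arr3a (0.376). For cry3b they were cry5 (0.469), per2 (0.475) and si:dkey-104n9.1 (0.515), with a median of 1.67.

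The genes closest to cry1b were nr1d2b (0.115), a Rev-erb repressor of the clock's second loop, zgc:162144 (0.127) and pdcb (0.177), with a median of 0.496. Those closest to cry2 were slc1a2a (0.174), a glutamate transporter, znf395b (0.181) and bhlhe40 (0.186), a repressor that binds E-boxes, with a median of 0.453. For cry4 they were tas1r3 (0.0398), tmem204 (0.0456) and pycr3 (0.0486), with a median of 0.231, and at so small a range many flat profiles lie close. The listed retina marker arr3a rose by 1.81 at 12-h light (adjusted p = 0.00196, probe A_15_P104664), while the retina markers opn1mw1 and rho were at -1.56 (adjusted p = 0.00116) and -0.02 (adjusted p = 0.898). Of the pineal markers aanat2 was at 0.746 (adjusted p = 0.0494) and exorh at 0.131 (adjusted p = 0.277), and the red blood cell markers hbae1.1 and alas2 fell by 1.13 (adjusted p = 0.00327) and 0.896 (adjusted p = 0.00686). Of the other listed markers the liver marker tfa fell by 0.58 (adjusted p = 0.0116) and the pancreas marker cpa5 rose by 0.437 (adjusted p = 0.0121). Their part in the cryptochrome values was not tested.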

How the data were processed

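The authors' arrays had 1 dye, Cy3, and were read with Agilent Feature Extraction 11.5.1.1, per the file headers. Each deposited intensity had been background-subtracted and detrended by this program but not scaled to other arrays. Uncorrected intensities of spot and local background were deposited too, with flags (0 or 1, another kind of value that the authors deposited) for irregular or saturated spots and spots well above background. A deposited table holds the same intensities times 1 constant per array. The study's methods name another software than the headers.

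From these, log2 signals minus the 75th percentile of each array were computed, irregular spots (1 to 8 per array) were left out, and spots of a probe were averaged. No spot was saturated. Gene names came from RefSeq accessions in a table of assembly GRCz12tu, which named 26094 of 43603 probes. Spot spread was taken from 41 probes spotted more than once, where their spots were well above background. In single-array ratios, signals below the dimmest one well above background on their array were set to it (threshold 2-fold, no p). Tests used limma 3.58.1 in R 4.3.3 with genotype and lighting as terms (4 residual degrees of freedom), on probes well above background on at least 3 arrays, with Benjamini-Hochberg adjustment over all probes at 0.05. The lone array of each condition is thus taken to vary like the others, and p-values measure the spread between these arrays that both terms leave. With 1 array per condition, that spread includes any difference in light response between genotypes. A probe whose response differs between genotypes is therefore harder to call in this fit. The fit that took both lightings as lit left 3 residual degrees of freedom, and that with a shared knockout response left 2. The fits were checked only on simulated data with independent noise of equal spread on every array and no outlying array. That check does not cover an array like that of TKO larvae in darkness.

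Members, classes and gene lists were chosen with earlier results of these data known. Named genes were every member probe, per2, the listed clock genes with the largest called change in each direction at 12-h light, and the 3 closest profiles per member; other genes named were chosen after their values were seen. Alternatives were quantile normalization, median scaling, the deposited table, normexp (offset 50) with quantile normalization, other probe filters, array weights, the trend and robust options of limma, and leaving out each array.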

Additional observations from a re-analysis of the deposited data

Results flagged for a closer look

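On the probe of cry2 and on 1 of the 3 probes of cry1b, both lit arrays of 1 genotype lay above its dark array while both lit arrays of WT larvae lay below theirs. In cry2 (A_15_P161566) the log2 ratios to darkness at 3-h and 12-h light were -0.07 and -1.10 in WT larvae, 0.16 and 0.29 in DKO larvae and 0.98 and 0.69 in TKO larvae, so that at 12-h light DKO and TKO larvae differed from WT larvae by 1.39 and 1.80. In cry1b probe 1 (A_15_P168101) they were -0.44 and -1.0 in WT larvae and 0.03 and 0.08 in DKO larvae, a difference of 1.08 at 12-h light. Probes 2 and 3 of cry1b did not share this, at -0.32 and -0.06 in DKO larvae at 12-h light. The ratios of -0.07, 0.16, 0.03 and 0.08 are within the spot spread of 0.189. With 1 array per condition the differences themselves were not tested here, and the shared fit given for them called neither gene.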

How the results depend on the processing

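At 12-h light against darkness, the 5 probes of cry1a, cry3a and cry3b kept their direction and call under every alternative in which they were tested. Leaving out 1 array at a time gave 1994 to 10574 called probes for 12-h light against darkness and 5 to 7 cryptochrome probes, 0 to 4378 and 0 to 1 for 3-h light against darkness, and 17 to 533 and 2 to 5 for 12-h against 3-h light. It gave 2226 to 10922 and 1 to 2 for DKO against WT, 167 to 564 for TKO against DKO, and 0 to 147 and 0 to 1 for the 12-h light response of both knockouts against WT. The change of cry2 at 12-h light then ran from -0.381 to 0.384. Of 39140 probes, array weights called 14754 for 12-h light and 15001 (4 cryptochrome probes) for 3-h light against darkness. They called 1534 for 12-h against 3-h light, 11683 for DKO and WT and 1663 for TKO and DKO. With normexp, 12-h against 3-h light called 271 probes and the light response of TKO against WT 1495 probes. The same setting called 0 cryptochrome probes among 4036 called probes for 3-h light, and 4 among 7157 for DKO against WT. In the main fit, 3290 and 5063 of 39140 probes were called in these comparisons. Trend and robust options gave 266 for 12-h against 3-h light, 1877 for that TKO response and 1 for both knockouts against WT, and no filter gave 1793 for 3-h light.

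With normexp the difference of class medians was 0.33 at 3-h light in WT larvae. At 12-h light it was 2.32, 1.65 and 1.88 in WT, DKO and TKO larvae. With normexp 0 cryptochrome probes were 2-fold from darkness at 3-h light in WT larvae, against 1 in the main analysis. In TKO larvae that count of cryptochrome probes was 1 in the main analysis and 2 in the deposited table. It was 0 by quantile normalization, median scaling or normexp. Of the probes called at 12-h light 60% were higher, against 49.8% by median scaling and 50.4% by quantile normalization, and at 3-h light 56.6% against 41.3% and 43.9%. For DKO against WT 64.7% were higher, against 52.2% with normexp, and for TKO against DKO 42.8%, against 53% by quantile normalization. The median probe of TKO larvae moved by 0.148 from darkness to 12-h light, by 0.257 in the deposited table and by 0.0376 with normexp. The cause of these shifts was not tested. Array weights could not be fitted for the shared knockout response. No paired analysis was possible because the labels give no replicate numbers and each condition has 1 array.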
